A study of Mus musculus with 8 samples.

Results

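The genes described here encode the proteins that fill, tether, prime and fuse synaptic vesicles: 38 genes listed by name from the 55335 genes of a count table of mouse vagal ganglia. All 38 were found under their GENCODE M21 symbols, all 38 have the same gene span there, and all 38 passed the filter on low counts, as did 17618 genes in total. The sensory neurons of the vagus nerve have their cell bodies in these ganglia; the nerve supplies the airways, heart and gut. Wild-type (WT) mice had been treated with HDM, which commonly stands for house dust mite, a source of inhaled allergens, or with saline, and ganglia were taken 1.5 h after challenge number 4. There were 4 HDM and 4 saline libraries, each made from 6 to 8 ganglia pooled over 3 to 4 animals, and batches 1 to 4 each hold 1 library of either group. Strain, age, sex and HDM dose are not stated in the labels.

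A presynaptic vesicle is loaded with transmitter by a transporter, held in reserve by synapsins and brought to the active zone by Rab3 and its partners, the RIM proteins. There the SNARE proteins syntaxin and SNAP-25 of the plasma membrane zip together with synaptobrevin (VAMP) of the vesicle. Munc13 proteins prime this complex, complexin holds it, calcium binding to a synaptotagmin triggers fusion, and NSF with its SNAP adaptors takes the spent SNAREs apart. In sensory ganglia the transcripts are made in cell bodies, while release takes place mainly at distant terminals in the brainstem and in the peripheral organs.

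The comparison asked whether these transcripts differed between HDM and saline mice 1.5 h after challenge number 4. With a single time point, effects of the last challenge and of earlier ones cannot be told apart. Syp, which encodes synaptophysin, an abundant membrane protein of synaptic vesicles, was 1.18-fold higher in HDM and was the member that passed the test. Levels are given in CPM, counts in every 1000000 of a library's total after scaling with TMM factors. Of the 38 genes, 1 was higher and 0 were lower in HDM (adjusted p under 0.05 over all 17618 genes in the quasi-likelihood test of edgeR), which is 2.63% of the members beside 1.23% of all genes tested called as higher and 0.159% called as lower. At an unadjusted p under 0.05, 12 members were higher and 3 lower. The 10.4% and 7.69% of all genes that met the same limit are the background to these counts and to those of the smaller lists further on. DESeq2, without the block, called 3 members as higher (Syp, Syngr1 and Unc13a), beside 3.33% of all genes, and limma-voom 1 (Syp), beside 1.07%. Both called 0 members as lower, beside 1.45% and 0.142% of all genes. With the batch as a replicate block in edgeR, 3 members were higher, Syp, Syngr1 and Unc13a, and 0 were lower (7.89% of the members, beside 3.01% of all genes called as higher and 1.03% called as lower).

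The differences were small in both directions. Log2 fold changes (log2FC) of HDM over saline ran from −0.34 to 0.24, and 34 of the 38 lay within 0.20 of zero, a 1.15-fold change. The standard error (SE) of single members was between 0.038 and 0.141. The median log2FC of the members was 0.06, beside −0.006 over all genes tested, and 23 of 38 members (60.5%) were above zero, beside 48.5% of all genes. In 3 members every HDM library lay above every saline library (7.89% of members, 6.25% of all genes), and in 0 members every HDM library lay below (4.39% of all genes). The share without overlap was thus close to that of the whole table. Without HDM 4 and saline 1 together, the pair of libraries that stood apart in the marker levels given further on, the median of the members was −0.02 and 0 passed (edgeR, 4 members higher and 1 lower at an unadjusted p under 0.05, beside 9.44% and 6.46% of all genes). This pair also held the highest summed level of the members in HDM (13900 CPM) and the lowest in saline (12100 CPM). A lower median without the pair was therefore built into the choice.

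**Figure D1:**
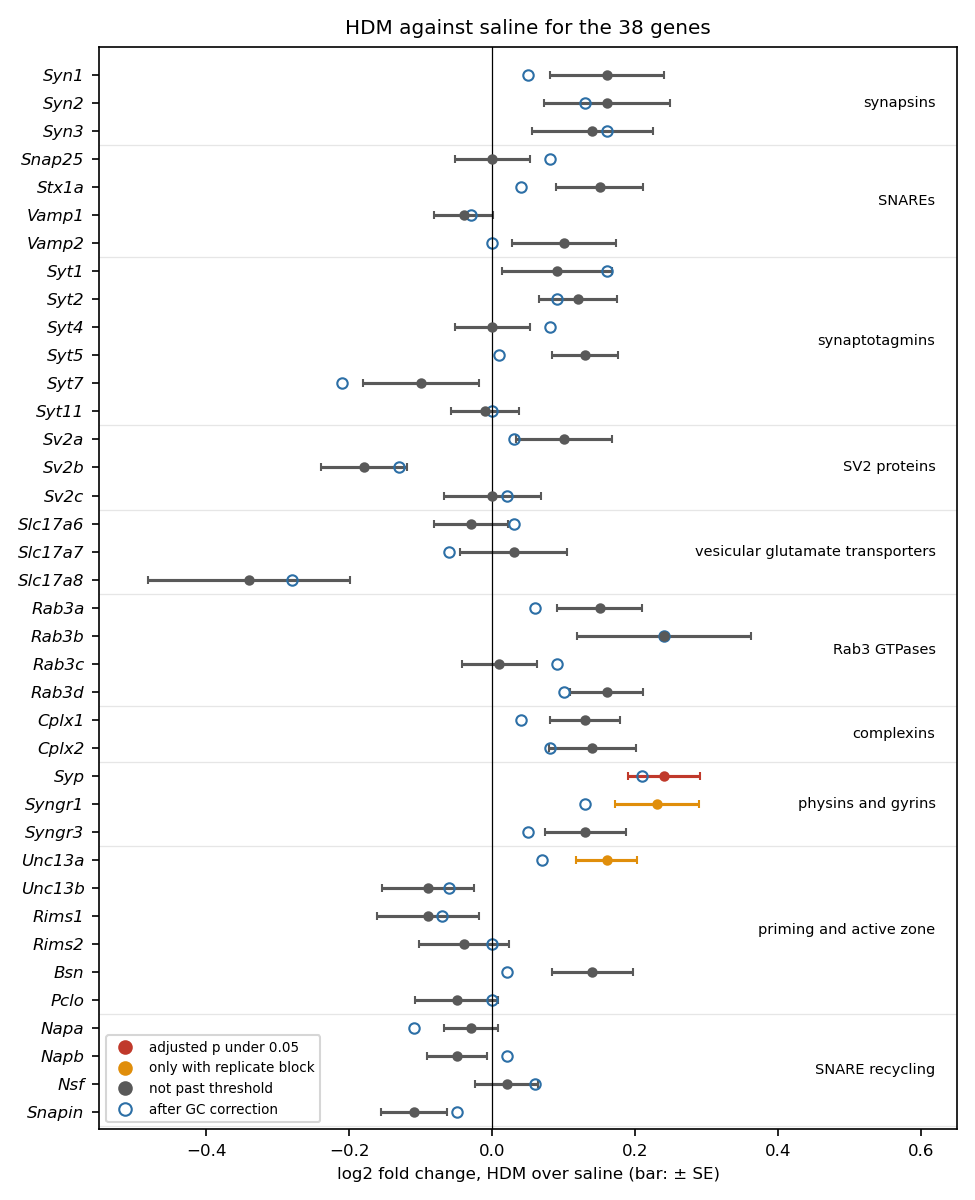
Log2FC of HDM over saline (horizontal axis, bars ± SE, n = 4 libraries in each group) for the 38 genes, grouped by role. Filled points are the edgeR fit with group as the only term, coloured by whether the gene passed there or with the replicate block, and open circles are values after a correction for GC content; Syp lies at 0.24 and 0.21.

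The promoters of the 3 genes called with the block are shown because the same genes carry the comparison, together with that of Syn1 because it held both motifs that were searched. Sequences are from RefSeq on GRCm38.p6, were found for 29 of the 38 members (38 windows of 300 bases), and are printed 5′ to 3′ on the gene's strand, from bases upstream of the start site that lie in no exon of GENCODE M21. The motifs were the cAMP response element TGACGTCA, which reads the same on both strands, and TTCAGCACC, the left part of the element bound by the neuronal gene repressor REST, searched as TTCAGCACC and GGTGCTGAA. Capitals mark matches. The Syp run is chrX:7638330-7638470 on the plus strand, that of Syngr1 is chr15:80091084-80091333 on the plus strand, that of Unc13a is chr8:71671758-71672007 on the minus strand and that of Syn1 is chrX:20921005-20921168 on the minus strand.
Syp: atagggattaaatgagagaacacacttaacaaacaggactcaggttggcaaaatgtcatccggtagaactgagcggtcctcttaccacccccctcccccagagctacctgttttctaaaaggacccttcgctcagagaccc
Syngr1: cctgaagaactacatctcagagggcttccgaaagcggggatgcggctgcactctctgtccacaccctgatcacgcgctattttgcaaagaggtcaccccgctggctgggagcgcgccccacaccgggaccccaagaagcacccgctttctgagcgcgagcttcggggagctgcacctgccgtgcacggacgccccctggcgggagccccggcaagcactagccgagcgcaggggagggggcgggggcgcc
Unc13a: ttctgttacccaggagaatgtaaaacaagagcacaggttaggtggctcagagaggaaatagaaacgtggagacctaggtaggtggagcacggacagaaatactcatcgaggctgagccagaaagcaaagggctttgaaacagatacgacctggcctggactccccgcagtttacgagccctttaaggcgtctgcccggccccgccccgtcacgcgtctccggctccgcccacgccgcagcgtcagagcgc
Syn1: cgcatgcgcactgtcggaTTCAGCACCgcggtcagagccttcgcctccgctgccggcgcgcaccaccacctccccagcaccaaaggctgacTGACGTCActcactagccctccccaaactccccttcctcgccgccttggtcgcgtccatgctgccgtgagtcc

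The GC content of these runs was 49.6% for Syp, 68.4% for Syngr1, 58% for Unc13a and 67.1% for Syn1. The runs cover unlike regions. From the RefSeq start site, that of Syp spans −250 to −110, that of Syn1 −250 to −87, and the others −250 to −1. TTCAGCACC began at position −232 from the Syn1 start site and TGACGTCA at position −159. Unc13a held the REST letters on the opposite strand 22 bases after its start site, outside the printed run, and Napa, the gene of alpha-SNAP, held the cAMP response element at position −7. Each motif was in 2 of the 38 windows of the 29 members. Over all 32851 promoter windows, TGACGTCA was in 1.79% and TTCAGCACC in 0.371%. With 2 windows for each motif, whether the members differ from all windows was not tested. The Syp and Syngr1 windows held neither motif.

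Synaptophysin and the synaptogyrins are related proteins that cross the vesicle membrane 4 times. Syp (ENSMUSG00000031144, GRCm38 chromosome X, 7638471 to 7653256) had 523, 523, 471 and 532 CPM in HDM 1 to 4 and 423, 429, 425 and 463 CPM in saline 1 to 4. The lowest HDM library, HDM 3, was just above the highest saline library, saline 4, so the groups did not overlap. The means were 512 ± 27.9 CPM and 435 ± 18.8 CPM (SD, n = 4 each), with a log2FC of 0.24 (SE 0.050, edgeR adjusted p = 0.039; blocked, 0.016), and HDM was higher in 4 of 4 batches. The call was lost without HDM 1, HDM 2, HDM 4, saline 1, saline 2 or saline 3 (edgeR adjusted p = 0.0638 to 0.165), while the log2FC stayed between 0.22 and 0.28 over all 8 libraries left out in turn. It was also lost without any 1 of the 4 batches (0.0786 to 0.263 by edgeR) and with RLE size factors (edgeR adjusted p = 0.0505).

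Syngr1, which encodes synaptogyrin-1, had 436, 427, 385 and 469 CPM in HDM 1 to 4 and 364, 372, 343 and 387 CPM in saline 1 to 4. HDM 3 was just below saline 4, the overlap of the groups, and HDM was higher in 4 of 4 batches. Its log2FC was 0.23 (SE 0.059, edgeR adjusted p = 0.0719). It passed with the block (edgeR adjusted p = 0.0145) and without it by DESeq2 (adjusted p = 0.0105). Syngr3 had 164 ± 10.1 CPM after HDM against 150 ± 10.6 after saline (log2FC 0.13, edgeR adjusted p = 0.244). Genes were compared with each other per kilobase of exon. The scale divides by all annotated exon bases of a gene, used in these ganglia or not, so a long annotation lowers the value. On it, the means over all 8 libraries were 90.9 CPM for Syp, 82.7 for Syngr1 and 75.9 for Syngr3, and the ranges of the 3 genes overlapped.

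**Figure D2:**
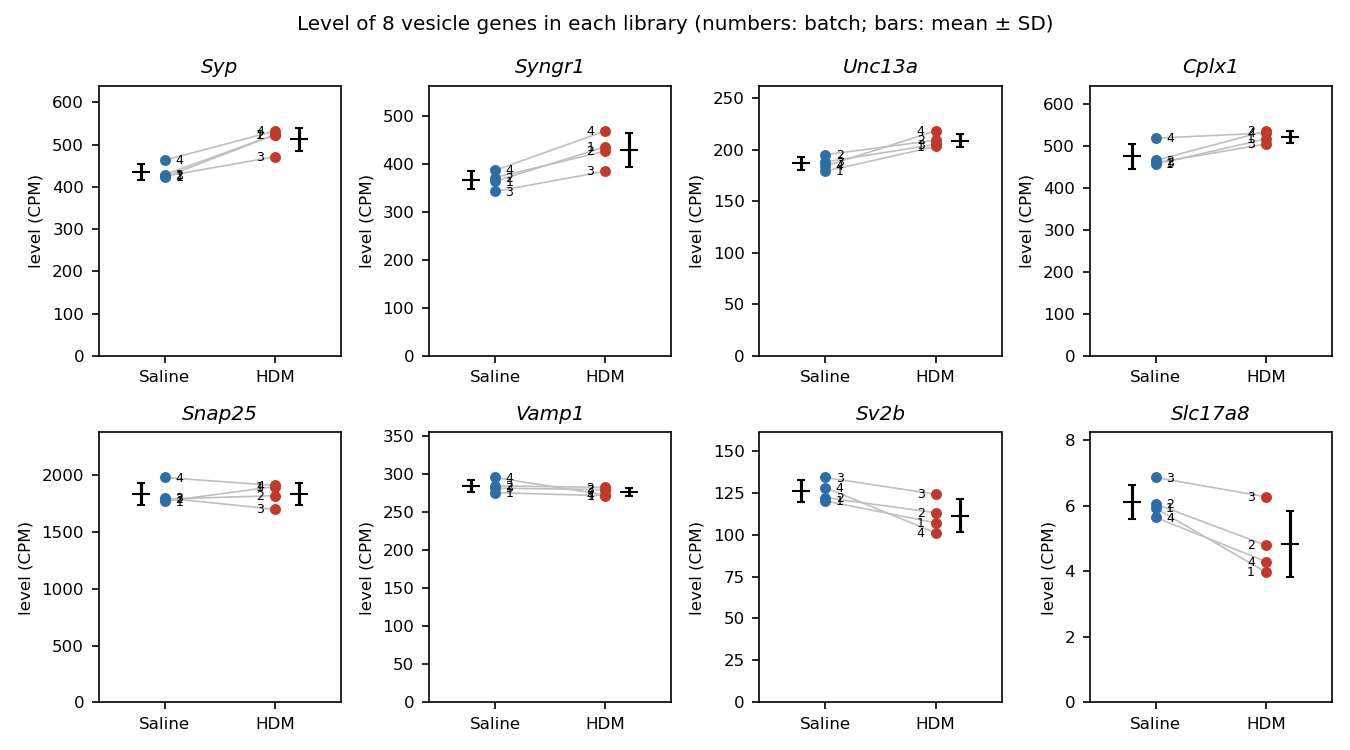
Level in CPM (vertical axes, from 0) of 8 genes in each saline and HDM library, with grey lines joining the libraries of 1 batch and black bars giving the mean ± SD (n = 4). All HDM libraries of Syp and Unc13a lie above all saline libraries, Snap25 overlaps over most of its range, and Sv2b and Slc17a8 are lower in HDM in every batch.

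Of the priming and active zone genes, Unc13a passed with the block, and without it by DESeq2 (adjusted p = 0.0135). It encodes Munc13-1, the main priming factor of glutamate synapses. Unc13a (ENSMUSG00000034799, chromosome 8, 71624417 to 71671757) had 203, 209, 205 and 218 CPM in HDM 1 to 4 and 179, 195, 188 and 184 CPM in saline 1 to 4. Every HDM library was above every saline library. The log2FC was 0.16 (SE 0.043, edgeR adjusted p = 0.0759; blocked, 0.0433). Unc13b, the gene of Munc13-2, was lower in HDM in 4 of 4 batches without passing (log2FC −0.09, SE 0.064, edgeR adjusted p = 0.479), and without HDM 4 it had −0.04. Per kilobase of exon, Unc13a had 15.7 CPM and Unc13b 2.36 CPM, and their ranges over the 8 libraries did not overlap.

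Bassoon and Piccolo are giant scaffolds of the active zone, and RIM proteins link it to Rab3 and calcium channels. Bsn, the bassoon gene, had 157, 163, 158 and 175 CPM in HDM 1 to 4 and 138, 148, 144 and 165 CPM in saline 1 to 4. Saline 4 lay above 3 of the HDM libraries, and within batches HDM was higher in 4 of 4 (log2FC 0.14, SE 0.057, edgeR adjusted p = 0.232; blocked, 0.0548). Pclo, the piccolo gene, had 196 ± 6.06 CPM after HDM against 203 ± 17.8 after saline (log2FC −0.05). Rims1 had a log2FC of −0.09, which was −0.04 without HDM 4, −0.06 without saline 4 and −0.15 without saline 1. Rims2 had −0.04, and none of the 3 passed. The 2 RIM genes were among the lowest members per kilobase, at 5.97 CPM for Rims1 and 6.30 CPM for Rims2.

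Of the 4 SNARE genes 0 passed (edgeR, 1 higher at an unadjusted p under 0.05; 0 by DESeq2 or limma-voom). Snap25, the gene of SNAP-25, had the highest level of all members per kilobase, 270 CPM. It had 1900, 1820, 1700 and 1910 CPM in HDM 1 to 4 and 1770, 1790, 1800 and 1980 CPM in saline 1 to 4, so the groups overlapped over most of their range. Its fold change was 1.00, with a 95% interval of 0.92 to 1.08 (from edgeR's SE, for this gene alone), and the edgeR adjusted p was 0.987. Stx1a, the gene of syntaxin-1A, had 70.9 ± 2.47 CPM after HDM against 63.9 ± 5.76 after saline, with HDM above saline in 4 of 4 batches (log2FC 0.15, SE 0.061, edgeR adjusted p = 0.216). Saline 4 was its low library, at 56 CPM, and without it the log2FC was 0.09.

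The vesicle SNAREs are encoded by Vamp1 and Vamp2. Vamp2 was higher in HDM in 4 of 4 batches (525 ± 45 CPM and 491 ± 50.9 CPM, log2FC 0.10, edgeR adjusted p = 0.517), and its log2FC was 0.04 without HDM 4, 0.04 without saline 1 and 0.17 without saline 4. Vamp1 was lower in HDM in 4 of 4 batches (277 ± 5.57 CPM and 285 ± 8.37 CPM, log2FC −0.04, edgeR adjusted p = 0.663), with a 95% interval for the fold of 0.92 to 1.03. Per kilobase of annotated exon (3809 bases for Vamp2 and 10167 for Vamp1), Vamp2 stood at 133 CPM and Vamp1 at 27.6 CPM. Their ranges did not overlap.

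Complexins clamp and assist the SNARE complex, and both genes were higher in HDM in 4 of 4 batches. Cplx1 had 517, 536, 505 and 531 CPM in HDM 1 to 4 and 457, 466, 460 and 519 CPM in saline 1 to 4. Saline 4 reached into the range of HDM, and the other 3 saline libraries lay below all HDM libraries. The log2FC was 0.13 (SE 0.049, edgeR adjusted p = 0.171; blocked, 0.0833). Cplx2 had 289 ± 16.3 CPM after HDM against 262 ± 22 after saline (log2FC 0.14, edgeR adjusted p = 0.248), with 0.08 without saline 1. Cplx1 was the member with the third highest level per kilobase, 228 CPM, and Cplx2 had 55.9 CPM on that scale.

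Synapsins coat vesicles and keep them in the reserve pool. Syn1 had 304, 295, 282 and 320 CPM in HDM 1 to 4 and 230, 270, 254 and 319 CPM in saline 1 to 4. Saline 1 was the lowest and saline 4 lay within HDM. The log2FC was 0.16 (SE 0.080, edgeR adjusted p = 0.299), and it was 0.09 without saline 1 and 0.25 without saline 4. Syn2 also had 0.16 (SE 0.088, edgeR adjusted p = 0.366), with 257 CPM in HDM 4 and 193 to 202 CPM in the other HDM libraries, and it had 0.05 without HDM 4 and 0.09 without saline 1. Syn3 had 16.3 ± 1.35 CPM after HDM against 14.8 ± 1.33 after saline (log2FC 0.14, edgeR adjusted p = 0.403), with 0.08 without HDM 1 or without saline 1. Per kilobase the order was Syn1 at 86.2, Syn2 at 28.7 and Syn3 at 1.27 CPM, with no overlap of their ranges.

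Synaptotagmins are mostly calcium sensors of fusion: Syt1, Syt2 and Syt5 encode vesicle proteins, Syt7 a slow sensor of high calcium affinity, and Syt4 and Syt11 forms that bind calcium weakly or not at all. The group split in direction, with 3 of 6 above zero, and 0 passed (edgeR, 2 higher at an unadjusted p under 0.05; 0 by DESeq2 or limma-voom). Syt5 had 57.1, 60.1, 58.2 and 59.9 CPM in HDM 1 to 4 and 53.1, 55, 56.4 and 51.3 CPM in saline 1 to 4, so the groups did not overlap (log2FC 0.13, SE 0.046, edgeR adjusted p = 0.171; blocked, 0.135). Syt2 had 254 ± 7.54 CPM after HDM against 233 ± 18.8 after saline and was higher in 4 of 4 batches (log2FC 0.12, edgeR adjusted p = 0.258), with 0.08 without saline 1. Syt1 had a log2FC of 0.09, with 0.03 without saline 1 and 0.01 without HDM 4, the library in which it was highest (537 CPM, with 424 to 454 CPM in the other HDM libraries).

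Syt7 went the other way, with 207, 264, 276 and 224 CPM in HDM 1 to 4 and 237, 272, 274 and 257 CPM in saline 1 to 4. HDM 1 and HDM 4 were the low libraries, and HDM 3 was above every saline library (log2FC −0.10, SE 0.081, edgeR adjusted p = 0.545). The log2FC of Syt7 was −0.03 without HDM 1, −0.06 without HDM 4 and −0.17 without HDM 3. Syt4 and Syt11 had folds of 1.00 and 0.99, with 95% intervals of 0.92 to 1.08 and 0.92 to 1.07. These 2 were the highest synaptotagmins per kilobase, at 220 CPM for Syt4 and 234 CPM for Syt11. Syt1 followed at 53.5, then Syt7 at 33.6, Syt2 at 31.9 and Syt5 at 23.7 CPM, and the ranges of Syt7 and Syt2 overlapped.

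SV2 proteins are vesicle glycoproteins and serve botulinum neurotoxins as receptors. Sv2b was lower in HDM in 4 of 4 batches, with 107, 113, 124 and 101 CPM in HDM 1 to 4 and 120, 122, 134 and 128 CPM in saline 1 to 4. HDM 3 lay within the saline range and the other 3 HDM libraries lay below it. The log2FC was −0.18 (SE 0.060, edgeR adjusted p = 0.141; blocked, 0.0512), and Sv2b passed as lower when no filter on low counts was used (edgeR adjusted p = 0.0415). Sv2a had 0.10, which was 0.04 without HDM 4, 0.06 without saline 1 and 0.16 without saline 4, and Sv2c had a fold of 1.00 with a 95% interval of 0.90 to 1.11. Sv2c was the main SV2 gene of the ganglia per kilobase, at 130 CPM, with Sv2a at 30.7 and Sv2b at 14.2 CPM and no overlap of ranges.

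Vesicular glutamate transporters load the transmitter that vagal sensory neurons release. Slc17a6 (VGLUT2) stood at 64.5 CPM per kilobase, Slc17a7 (VGLUT1) at 4.01 and Slc17a8 (VGLUT3) at 1.16, with no overlap of ranges. Slc17a6 had 345 ± 6.23 CPM after HDM against 352 ± 25.6 after saline (fold 0.98, 95% interval 0.91 to 1.06, edgeR adjusted p = 0.814). Slc17a8, which marks small sets of sensory neurons, had the lowest level and the lowest fold of all members. It had 3.98, 4.80, 6.28 and 4.30 CPM in HDM 1 to 4 and 5.93, 6.06, 6.87 and 5.65 CPM in saline 1 to 4. HDM 3 lay within the saline range, the other 3 HDM libraries lay below it, and HDM was lower in 4 of 4 batches (log2FC −0.34, SE 0.141, edgeR adjusted p = 0.226; blocked, 0.121). Slc17a8 had the lowest count of any member in any library, 95 in HDM 1, and the largest SE of the members.

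**Figure D3:**
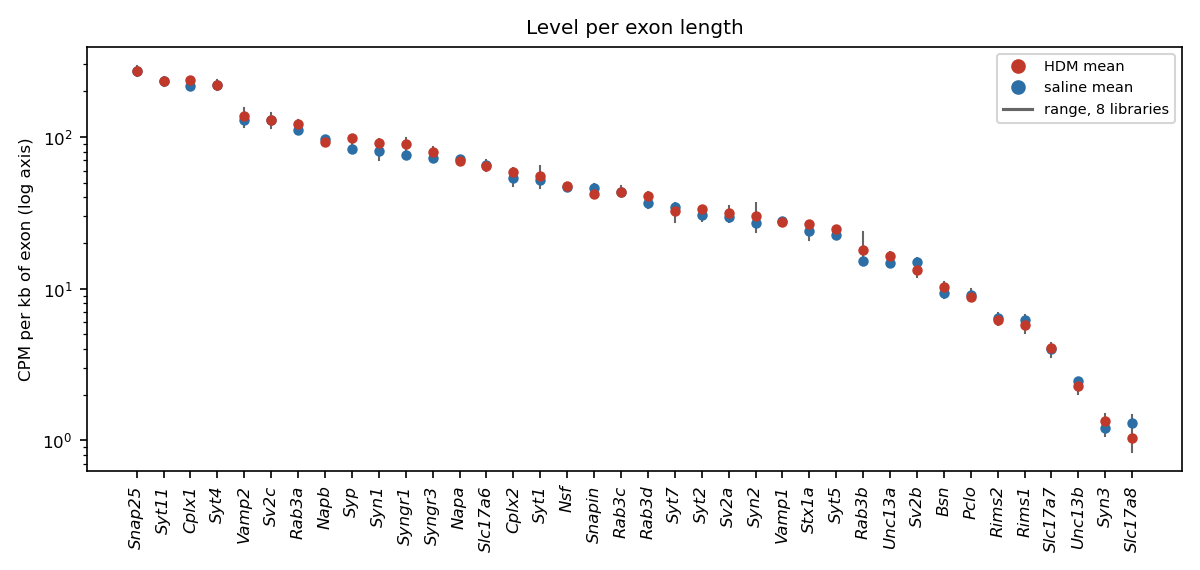
Mean level of the 38 genes in CPM per kilobase of exon (vertical log axis) in HDM and saline, ordered by the mean over all 8 libraries, with vertical lines for the range over these libraries. Levels run from 270 for Snap25 to 1.16 for Slc17a8, and the distance between the group means is small beside the distance between genes.

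Rab3 proteins are small GTPases that bring vesicles to release sites. All 4 genes had a log2FC above zero, and 0 passed (edgeR, 2 higher at an unadjusted p under 0.05; 0 by DESeq2 or limma-voom). Rab3d had 171, 171, 161 and 182 CPM in HDM 1 to 4 and 142, 162, 151 and 159 CPM in saline 1 to 4. HDM 3 lay just under saline 2, where the groups overlapped (log2FC 0.16, SE 0.051, edgeR adjusted p = 0.133; blocked, 0.0582). Rab3a, the main neuronal form, had 272 ± 20.4 CPM after HDM against 246 ± 14.7 after saline and was higher in 4 of 4 batches (log2FC 0.15, edgeR adjusted p = 0.214). Rab3c had a fold of 1.01 with a 95% interval of 0.93 to 1.09.

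Rab3b had 65.6, 54.6, 50.4 and 83.4 CPM in HDM 1 to 4 and 51.9, 60.4, 51.5 and 51.0 CPM in saline 1 to 4. HDM 4 stood far above the rest, and HDM was higher in 2 of 4 batches (log2FC 0.24, SE 0.122, edgeR adjusted p = 0.314). Without HDM 4 the log2FC of Rab3b was 0.08. Per kilobase the order was Rab3a at 116, Rab3c at 43.5, Rab3d at 38.7 and Rab3b at 16.6 CPM, and the ranges of Rab3c and Rab3d overlapped.

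The genes that recycle SNAREs differed little, and 0 of the 4 passed (edgeR, 1 lower at an unadjusted p under 0.05; 0 by DESeq2 or limma-voom). Nsf encodes the ATPase that pulls SNARE complexes apart, Napa and Napb its adaptors alpha-SNAP and beta-SNAP, and Snapin a protein that binds SNAP-25. Napa had 264 ± 3.92 CPM after HDM against 270 ± 3.89 after saline, Napb 657 ± 16.0 and 680 ± 21.3 CPM, and Nsf 394 ± 6.28 and 388 ± 18.1 CPM. Their 95% intervals for the fold were 0.92 to 1.04, 0.91 to 1.03 and 0.95 to 1.09. Snapin had 95.4, 97.0, 99.9 and 95.5 CPM in HDM 1 to 4 and 107, 99.2, 101 and 111 CPM in saline 1 to 4. Only HDM 3 reached the saline range, and HDM was lower in 4 of 4 batches (log2FC −0.11, SE 0.046, edgeR adjusted p = 0.233). Napa and Napb were also lower in 4 of 4 batches without passing. Their log2 difference rounded to 0 in batch 2 for Napa and in batch 1 for Napb.

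Over all members, 15 were higher in HDM in 4 of 4 batches and 7 were lower in 4 of 4. The same shares over all genes were not counted, so these counts have no background. The size of the difference varied with the batch. The median log2 difference of the 38 genes between HDM and saline was 0.125 in batch 1, 0.063 in batch 2, 0.008 in batch 3 and 0.013 in batch 4, and 28, 28, 20 and 20 members were higher in HDM in these batches. Replicates were close to each other, and in 31 members the coefficient of variation was under 10% in both groups. The widest spread was that of Rab3b in HDM, at 23.2%, and of Slc17a8 in HDM, at 21%.

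Other genes of the vesicle cycle were taken from fixed lists of 118 genes, of which 117 were in the table and 110 were tested. Of these, 3 were higher and 1 lower in HDM (2.73% higher, beside 1.23% of all genes called as higher and 0.159% called as lower). With the block 10 were higher and 1 lower (9.09% higher, beside 3.01% of all genes called as higher and 1.03% called as lower). The same shares of all genes are the background to each of the lists. Apba2, which encodes the Munc18 partner Mint2, had 75.8 ± 6.10 CPM after HDM against 61.5 ± 1.71 after saline (log2FC 0.30, SE 0.056, edgeR adjusted p = 0.0244). Ppfia3, which encodes the active zone scaffold liprin-alpha-3, rose by a log2FC of 0.24 (edgeR adjusted p = 0.039), and its paralog Ppfia4 passed with the block (log2FC 0.20, edgeR adjusted p = 0.0662; blocked, 0.0262). Both belong to the 20 other active zone genes, of which 2 were higher and 0 lower, or 4 and 0 with the block.

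Of 24 genes of vesicle endocytosis 1 was higher and 0 lower, or 4 and 0 with the block. Cltb, a clathrin light chain, had 232 ± 10 CPM after HDM against 202 ± 6.01 after saline (log2FC 0.21, SE 0.044, edgeR adjusted p = 0.0422). Pacsin1, a membrane-bending partner of dynamin, had 0.20 and Clta, the other clathrin light chain, 0.18, and both passed with the block (edgeR adjusted p = 0.0215 and 0.0325). Of 21 other SNARE genes and regulators, Stxbp6, which encodes the SNARE-binding protein amisyn, was lower, with 18.5 ± 1.29 CPM after HDM against 25.1 ± 3.32 after saline (log2FC −0.44, SE 0.089, edgeR adjusted p = 0.0336), and 0 were higher. Vamp3 and Stxbp3 had −0.19 and −0.22 without passing. Of 16 subunits of the vacuolar proton pump that acidifies vesicles 0 passed (edgeR, 2 higher at an unadjusted p under 0.05; 0 by DESeq2 or limma-voom), and Atp6v1g2, a neuronal subunit, passed as higher with the block (0.19, edgeR adjusted p = 0.044). Of 13 other vesicle membrane proteins 0 passed (edgeR, 2 higher and 2 lower at an unadjusted p under 0.05; 1 higher by DESeq2 and 0 by limma-voom). Svop, an SV2-related transporter, passed with the block (0.19, edgeR adjusted p = 0.0405), and Synpr, the gene of synaptoporin, had −0.20. Of 16 other calcium sensors and priming genes 0 passed (edgeR, 3 higher and 2 lower at an unadjusted p under 0.05; 0 by DESeq2, by limma-voom or with the block). The 3 with the smallest p were Doc2b at 0.69, Syt6 at −0.21 and Syt15 at 0.28.

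Genes rich in G and C tended to have the higher folds. The 20 members with a transcript GC content above 50% had a median log2FC of 0.14, and 18 of them were above zero. The other 18 members had a median of −0.03, and 5 were above zero. Spearman's rho between GC content and log2FC was 0.55 across the 38 genes and 0.41 across all genes tested, as a description of values that share the same 8 libraries. After a spline correction of each library for GC content, rho was −0.03 across the members and their median log2FC was 0.037. In that fit 0 members passed (edgeR, 2 higher and 3 lower at an unadjusted p under 0.05, beside 6.34% and 5.26% of all genes) and 0 of all genes (2044 at an unadjusted p under 0.05), and with both block and correction 0 members and 0.119% of all genes were called as higher (edgeR, 5 members higher and 4 lower at an unadjusted p under 0.05, beside 7.75% and 6.26% of all genes). Syp then had a log2FC of 0.21 (edgeR adjusted p = 0.174, and 0.0898 with block and correction), Syngr1 0.13 and Unc13a 0.07. Syt7, lower in HDM, moved away from zero, from −0.10 to −0.21 with the correction (edgeR adjusted p = 0.377) and −0.22 with block and correction (edgeR adjusted p = 0.0979). Whether base composition or the treatment sets these values was not tested.

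**Figure D4:**
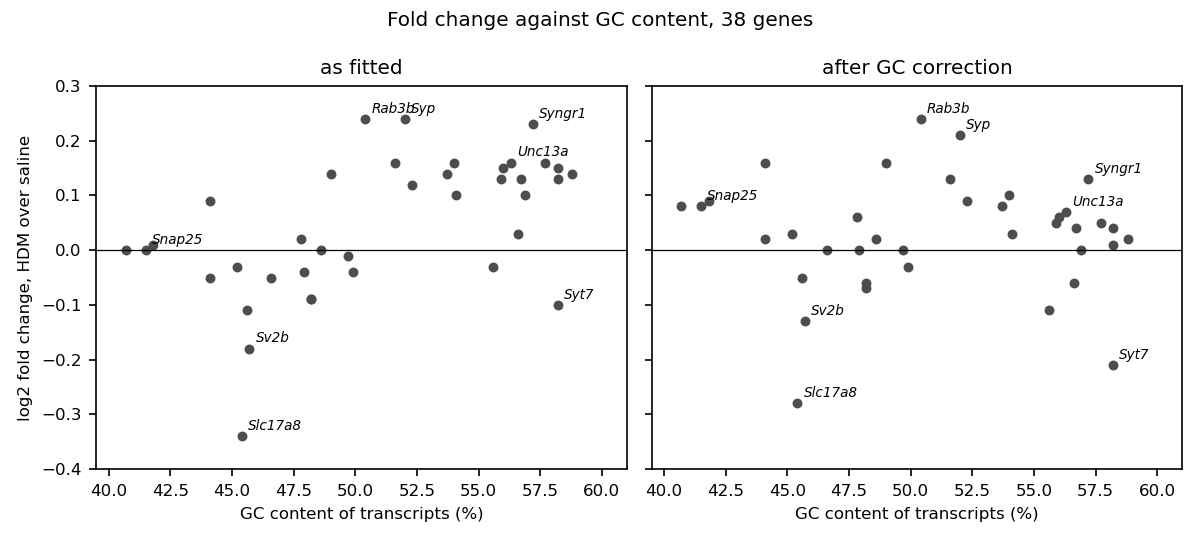
Log2FC of HDM over saline (vertical axis) against the GC content of the gene's transcripts in percent (horizontal axis) for the 38 genes, as fitted and after the GC correction. The points slope upward on the left (rho 0.55) and show no slope on the right (rho −0.03), while Syp and Rab3b stay among the highest.

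In bulk tissue, fewer cells of a type and less RNA per cell cannot be told apart, so the share of neurons bears on every member. Over all genes tested, 1.23% were called as higher and 0.159% as lower, or 3.01% and 1.03% with the block. Of 15 pan-neuronal markers, such as Tubb3 and Prph, 2 were higher and 0 lower, or 7 and 0 with the block, with a median log2FC of 0.13. Their summed level was 15900 to 17100 CPM in HDM and 14500 to 15800 CPM in saline, and the groups did not overlap. The summed level of the 38 vesicle genes did overlap, at 12700 to 13900 CPM in HDM and 12100 to 13800 CPM in saline. As a share of the pan-neuronal sum it was 80.2%, 78.4%, 79.7% and 84.4% in HDM 1 to 4 and 83.8%, 84.1%, 84.5% and 87.6% in saline 1 to 4. This share was lower in HDM in each batch, and HDM 4 lay within the saline range. Syp by itself made up 3.17%, 3.07%, 2.96% and 3.23% of that sum in HDM 1 to 4 and 2.92%, 2.82%, 2.77% and 2.93% in saline 1 to 4. As a share of the neuronal markers, Syp was higher in every HDM library than in any saline library, by a smaller margin than in CPM. Syngr1 made up 2.42% to 2.85% in HDM and 2.24% to 2.52% in saline, and these ranges overlapped. Unc13a made up 1.22% to 1.32% in HDM and 1.17% to 1.28% in saline, which overlapped too. Sv2b made up 0.611% to 0.779% in HDM and 0.801% to 0.874% in saline, with every HDM library below every saline library. All these shares rest on a single denominator, whose sum was itself higher in HDM. The median log2FC of the pan-neuronal markers was 0.051 after the GC correction. The part of the neuron share in these values was not tested. The sum of the vagal sensory markers overlapped between the groups (3890 to 4130 CPM in HDM, 3640 to 4070 CPM in saline). Shares of that sum were not computed, and they need not go the same way.

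Markers of other cells differed in some lists, by group or in single libraries. Of 12 satellite glia markers 1 was lower and 0 were higher, beside 0.159% and 1.23% of all genes. Of 10 macrophage and 9 endothelial markers 0 passed (edgeR, 1 macrophage marker lower at an unadjusted p under 0.05). Of 12 markers of myelinating Schwann cells 2 were lower, beside 0.159% of all genes, with a summed level of 2760 to 3050 CPM in HDM and 2890 to 3530 CPM in saline. The 8 markers of sympathetic neurons, which use the same release machinery, were all detected and summed to 743 CPM in HDM 4, 253 to 283 CPM in the other HDM libraries and 121 to 325 CPM in saline. Among them 0 passed (edgeR, 5 higher at an unadjusted p under 0.05; 1 higher by DESeq2 and 0 by limma-voom). Saline 1 held the lowest pan-neuronal sum and the highest sums of fibroblast markers (1240 CPM, with 781 to 963 CPM elsewhere) and erythroid markers (247 CPM, with 45.8 to 78.0 CPM elsewhere). The 11 vagal sensory markers summed to 3890 to 4130 CPM in HDM and 3640 to 4070 CPM in saline, with 0 past the threshold (edgeR, 3 higher at an unadjusted p under 0.05; 1 by DESeq2 and 0 by limma-voom), and all were detected. The part of these cell types in the vesicle gene values was not tested. Without HDM 4 and saline 1 together, Syp had a log2FC of 0.20, Syngr1 0.18, Unc13a 0.12, Syn1 0.06, Syn2 −0.01 and Sv2b −0.16. These folds do not test that part, since the pair also held the highest HDM sum and the lowest saline sum of the vesicle genes.

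**Figure D5:**
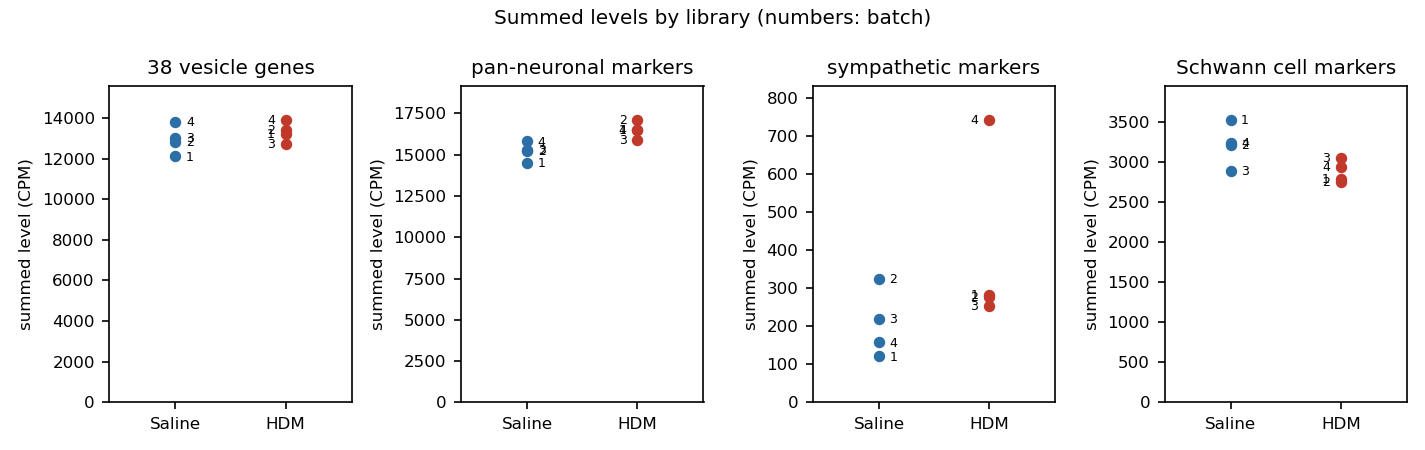
Summed level in CPM (vertical axes, from 0) of the 38 vesicle genes and of markers of all neurons, sympathetic neurons and Schwann cells in each library, labelled by batch. The pan-neuronal sums of HDM lie above those of saline, the vesicle gene sums overlap, and HDM 4 holds 743 CPM of sympathetic markers.

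Reads from overlapping genes bear on 12 members that share exon bases with a gene on the opposite strand, since no label states the strand setting of the counting. In addition, 1 member, Bsn, shares exon bases with a gene on the same strand, Gm47303, whose level was not examined. The partner of Syp, Gm14703, had 1.74 to 5.61 CPM in HDM and 1.25 to 1.59 CPM in saline, far below Syp itself. Colgalt1, the partner of Unc13a, averaged 71.8 CPM after HDM against 71.1 CPM after saline. Ilf2, the partner of Snapin, had 62.9 and 63.6 CPM beside 97 and 105 CPM of Snapin itself. How many bases each pair shares was not computed, so the part of these partners' reads in Unc13a and Snapin is not known. Syn1 shares bases with Araf, at 181 and 187 CPM, and Syn3 with Timp3, at 387 and 419 CPM, far above Syn3 itself. The part of these partners' reads in Syn1 and Syn3 is not known either. Library totals were 23.95 to 26.67 M counts (M, 1000000) in HDM and 26.87 to 31.28 M in saline, and single members had 95 to 61114 counts in a library.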

How the data were processed

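Per the labels' protocols, stranded mRNA libraries of whole ganglia were sequenced on an Illumina NovaSeq in paired reads. The authors deposited whole-number counts per gene, not normalised, made with featureCounts on GRCm38 (mm10), per the submitters' processing notes. The labels state no aligner, version or strand setting. Each column is 1 merged alignment file, per the file headers. The deposited table also gives exon lengths, on which the other scale, CPM per kilobase, rests.

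Genes were filtered with filterByExpr of edgeR 4.0.16 (R 4.3.3), scaled with TMM, and compared with the quasi-likelihood test (2-sided, group as the only term, Benjamini-Hochberg over 17618 genes). Alternatives were RLE factors, 2 other filters, DESeq2 1.42.0, limma-voom (limma 3.58.1), the replicate block, a GC correction (spline with 4 df on genes above log2 CPM 3, GC known for 99.9% of genes), and leaving out each library or batch. Leaving out HDM 4 and saline 1 together was added after seeing the data. The batch label pairs the libraries. Deviations from the group means correlated by −0.05 to 0.03 within batches, so the pairing rests on the label. Pools are the replicates, and p-values measure the spread between pools.

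All 38 members were described whatever their p, and the 3 genes with the smallest p of each other list. Members and lists were chosen with earlier results of these data known.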

Additional observations from a re-analysis of the deposited data

Results flagged for a closer look

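In each group of 4 libraries, a library was singled out where its gap to the nearest other, as a share of the group's range, exceeded Dixon's 95% critical value, which chance passes in about 1 in 20 groups. Of the 76 groups (38 genes in HDM and in saline) 8 did. Saline 4 was the high library for 4 genes: Snap25 at 1980 CPM (others 1770 to 1800), Rab3a at 268 CPM (237 to 240), Cplx1 at 519 CPM (457 to 466) and Syp at 463 CPM (423 to 429). Saline 2 was high for Rab3b at 60.4 CPM (51.0 to 51.9). In HDM, Syn2 stood out in HDM 4 at 257 CPM (193 to 202), Syn3 in HDM 1 at 18.3 CPM (15.4 to 15.9), and Syp in HDM 3 at 471 CPM as the low library (523 to 532).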

How the results depend on the processing

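With group as the only term, edgeR called 216 genes higher and 28 lower, 1 member higher (Syp) and 0 lower. Calls of all genes (higher, lower) and of members as higher were 421, 301 and 2 with no filter on low counts, where 1 member was lower (Sv2b), 587, 256 and 3 with DESeq2, 531, 182 and 3 with the replicate block, 0, 0 and 0 with the GC correction, 21, 10 and 0 with block and GC correction, and 130, 5 and 0 without HDM 4 and saline 1 together. RLE factors gave 0 members. Without single libraries all genes ranged from 0 to 288 higher and 0 to 88 lower, and members from 0 to 2. Of the libraries, leaving out HDM 1, HDM 2 or saline 3 left 0 calls over all genes (edgeR, 2449, 2452 and 2373 genes at an unadjusted p under 0.05). Without batches 1 to 4 the calls were 4, 0, 19 and 4 higher and 1, 0, 5 and 0 lower, with 0 members. The cause was not tested, except that fewer libraries entered the leave-out fits. The median member log2FC was 0.011 to 0.095 without a library or batch and −0.02 without HDM 4 and saline 1 together.

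Some members changed sign, most of them near zero, but also Syn2, Vamp2 and Syt1 (log2FC 0.158, 0.097 and 0.088 with group as the only term). Sv2c had −0.004 with RLE factors and with DESeq2, −0.014 with no filter and −0.006 at 1 CPM in 4 libraries, and Rab3c −0.004 with no filter. With the GC correction Snap25 had 0.081, Syt4 0.083, Slc17a6 0.032, Napb 0.02, Vamp2 −0.004 and Slc17a7 −0.064. With block and GC correction Snap25 had 0.08, Syt4 0.081, Slc17a6 0.034, Napb 0.02, Pclo 0.001 and Slc17a7 −0.064. Without HDM 4 and saline 1 together Syn2 had −0.005, Vamp2 −0.008, Syt1 −0.05, Sv2c −0.097, Slc17a7 −0.039, Rab3c −0.042 and Nsf −0.002. Without single libraries the ranges were −0.01 to 0.047 for Nsf, −0.088 to 0.001 for Pclo, −0.026 to 0.053 for Rab3c, −0.076 to 0.002 for Rims2, −0.068 to 0.005 for Slc17a6, −0.009 to 0.087 for Slc17a7, −0.024 to 0.034 for Snap25, −0.062 to 0.048 for Sv2c, −0.054 to 0.017 for Syt11 and −0.034 to 0.028 for Syt4. Without batch 1, Sv2c had −0.049, Rab3c had −0.035. Without batch 2, Sv2c had −0.023. Without batch 3, Snap25 had 0.021, Syt4 had 0.033, Slc17a6 had 0.001. Without batch 4, Snap25 had 0.012, Syt11 had 0.018, Slc17a6 had 0.012, Rab3c had −0.022, Rims2 had 0.012. In edgeR, the pairing changed the calls of Syngr1 and Unc13a (replicate block, edgeR adjusted p = 0.0145 and 0.0433) and of no other member. DESeq2 called both genes without the pairing (adjusted p = 0.0105 and 0.0135). The lowest member count in a library was 95, for Slc17a8, the member that depth limits most.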
